A study of Rattus norvegicus with 10 samples.

Results

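Long noncoding RNAs are transcripts that are not translated into protein. Some act in the nucleus on chromatin, splicing and transcription, others act in the cytoplasm by binding proteins or microRNAs, and a few are among the most plentiful RNAs of a cell. Inflammatory stimuli are known to change many of them in macrophages, endothelium and epithelium, the cell types that meet bacterial products in the lung. The bright members of this class were examined here, because a strong signal on an array is measured well clear of background.

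The members were selected on their signal. On the custom Agilent array 3855 of the 38804 noncontrol probes carry the letters LNC in their identifier. A probe was a member if its mean level over all 10 arrays was above 0 and it was well above background on all 10. Level means the log2 processed signal minus the 75th percentile of the same array, so a level of 0 is the signal at that percentile. The rule gave 423 members, 11% of the LNC probes, each with 1 spot per array. All of the LNC probes with a mean level above 0 were also well above background on every array, so the second condition removed none. The members just inside the limit had mean levels of 0.0013 and 0.0049, and the LNC probes just outside it had -0.0029 and -0.0096. A transcript at background in either group could not be a member, so the rule limits how large a fall or a rise can be.

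The study measured RNA of whole lung tissue from male Wistar rats, 8 weeks old, with 5 arrays from rats in septic shock after lipopolysaccharide (LPS) and 5 from controls. LPS is a part of the bacterial outer membrane and a strong trigger of innate immunity. The sources used here give neither its dose, route and time nor what the controls received. The labels number the samples without stating that each is a separate rat, so the spread behind the p-values may be technical.

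The LNC identifiers are codes that the files used here pair with no gene, so members are described by their values. Identifiers are printed for only 4 of them, those that met a naming rule stated with the processing. No sequence is printed, since the files used here hold none for these probes. Of 18 known long noncoding RNAs looked for, among them Malat1, Neat1, Meg3, H19 and Gas5, 0 had a probe paired with their symbol. The same held for 0 of 33 marker genes of lung epithelium, endothelium, neutrophils, macrophages, fibroblasts and smooth muscle, lymphocytes and red blood cells. The tissue label could therefore not be checked against defining markers. In whole lung, fewer cells of a type and less RNA per cell cannot be told apart.

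The 10 arrays fell into 3 sets by the scan stamp in their headers. Arrays that share a stamp are called a slide here, which is an inference. Slide 1 held 2 LPS arrays, slide 2 held 4 controls, and slide 3 held 3 LPS arrays and control replicate 20. The 75th percentile of the signal was 279 to 351 on slide 2 and 381 to 496 on slides 1 and 3, and no spot was saturated. For most controls slide and group cannot be told apart, and only slide 3 holds both. Control replicate 20 also stood apart from the other controls on the members. The array median over the 417 tested members was 1.21 to 1.30 on the 4 slide 2 controls, 1.53 to 1.66 on the 5 LPS arrays and 1.89 on control replicate 20. The control of slide 3 was thus the highest of all 10 arrays, and the slide 2 controls were the lowest. On 187 of the 417 members (44.8%) its level was above that of every other array, against 18.2% of all 36025 tested probes. It exceeded the slide 2 controls on 223 members past the threshold and fell short of them on 23. This fit sets 1 array against 4 and assumes that it varies like the other arrays, so it compares that array and no group. These 246 are 59% of the members, against 35.6% of all tested probes. Results are therefore given over all arrays, without control replicate 20, and within slide 3. What sets this array apart, and its part in the results, was not tested.

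The first question was which bright long noncoding RNAs differed between LPS and control lung. Over all 10 arrays 146 of the 417 tested members passed an adjusted p of 0.05 in limma, 35%, against 33% of all tested probes. The share of members past the threshold was thus close to the background. Of the members, 89 rose in LPS lung (21.3%, against 14.8% of all tested probes) and 57 fell (13.7%, against 18.2%). The median log2 difference over the tested members was 0.16, against -0.05 over all tested probes. Members were chosen on their level, so these counts describe them and were not tested against other probes. A change of at least 2-fold was seen in 36 members, 8.63%, against 6.5% of all tested probes. These were 20 rises and 16 falls. Over all tested probes 45% of the calls were higher in LPS, and 19% were with normexp background correction, under which 63.2% of the called members were higher. The other 6 members had a spot marked as an outlier on an array and were left out of the fit.

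**Figure D1:**
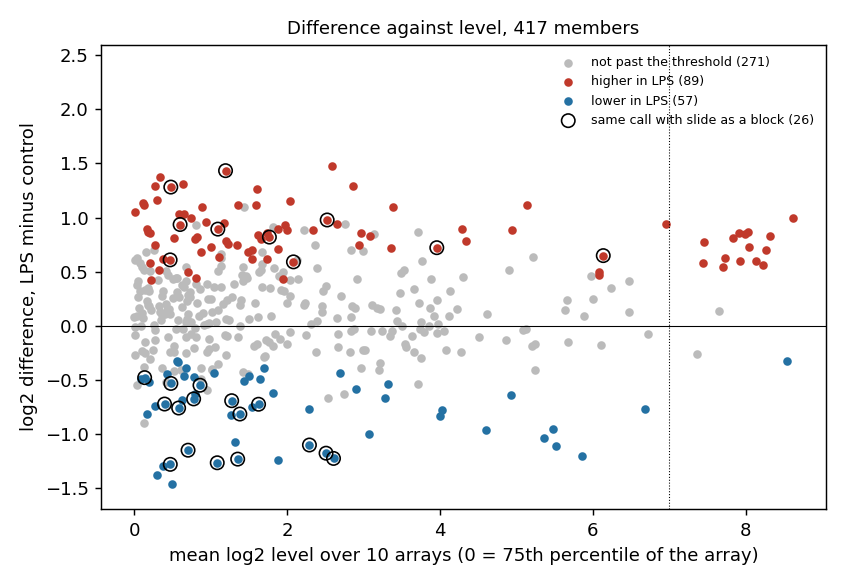
Each point is 1 of the 417 tested members, with its mean log2 level over 10 arrays on the horizontal axis and its log2 difference, LPS minus control, on the vertical axis. Red and blue points passed the threshold (89 and 57 members), black rings mark the 26 members with the same call when slide was a block, and the 18 points right of the dotted line at 7 are mostly red and carry no ring.

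Differences were moderate in size. They ran from -1.46 to 1.48 on the log2 scale, and their SE had a median of 0.185. The largest rise, 2.78-fold, went from a level of 1.85 ± 0.80 (SD, n = 5) over controls to 3.32 ± 0.30 over the 5 LPS arrays. Its adjusted p from limma was 0.00635. Its controls did not form 1 group: the 4 of slide 2 lay at 1.17 to 1.76, and control replicate 20 lay at 3.21, inside the LPS range of 2.89 to 3.65. The largest fall went from 1.23 ± 0.54 (SD, n = 5) over controls to -0.23 ± 0.71 over the 5 LPS arrays, and its adjusted p from limma was 0.00786. Here too the groups overlapped, since LPS replicate 6 was at 0.95 and control replicate 20 at 0.30. These extremes carry no identifier because they did not meet the naming rule.

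Among the called members, the groups did not overlap in 56, which is 13.4% of the tested members, against 15.8% of all tested probes. The groups were apart in 36 of the 57 falls and in 20 of the 89 rises, and the contrast between these shares was not tested. Control replicate 20 was closer to the mean of LPS than to that of slide 2 on 72 of the 89 risen members and on 21 of the 57 fallen ones. Over all tested members it was closer to LPS on 294, 70.5%, against 64.3% of all tested probes. The counts by direction have no such share beside them, so they are not read as particular to the members.

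Without control replicate 20 many more members were called. The count was 265, 63.5% of those tested, against 54.4% of all tested probes. Of these 192 were higher in LPS (46%, against 24.9%) and 73 lower (17.5%, against 29.5%). The median log2 difference of the members was 0.28 without that array. All 89 rises and all 57 falls of the full set of arrays were among these calls. The fits share every other array and no share kept over all tested probes is given. This is therefore neither a repeat nor read as particular to the members. At least 2-fold were 76 members without control replicate 20, 18.2%, against 9.86% of all tested probes.

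Within slide 3 most of the called members were lower in LPS. The comparison there sets 3 LPS arrays against control replicate 20 alone, and the fit with slide as a block rests on it, assuming that the single control varies like the other arrays. Since that array stood apart, its p-values may be too small. Of the members 79 passed (18.9%, against 10% of all tested probes), 15 of them higher in LPS (3.6%, against 4.94%) and 64 lower (15.3%, against 5.1%). Over all arrays 61% of the called members were higher in LPS, and with the block 19% were. The median log2 difference of the members within slide 3 was -0.29, against -0.04 over all tested probes. Of the 146 members called over all arrays, 43 had the opposite sign within slide 3, which is 29.5%, against 20.6% of the 11885 called probes overall.

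The members with the same call in both fits numbered 26, 6.24%, against 4.94% of all tested probes. Among custom probes without LNC in their identifier that met the same level rule, 9.55% had the same call. The 26 members were 10 rises and 16 falls, and 120 of the member calls over all arrays were not kept. Another 53 members passed with the block alone, 12.7%, against 5.1% of all tested probes. The rises in both fits spanned 0.59 to 1.43 over all arrays and 0.70 to 2.65 within slide 3. The falls spanned -1.28 to -0.48 and -2.02 to -0.55. In 8 of the 10 and 14 of the 16 the groups did not overlap over all 10 arrays. No share over all tested probes is given beside these counts, so they are not read as particular to the members. Both fits share control replicate 20 and the slide 3 LPS arrays, so the second is no independent repeat of the first.

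Within slide 3, 303 of the 417 members (72.7%) were lower in LPS whatever their call, against 54.1% of all tested probes. All 16 members that fell at least 2-fold over all arrays were also lower within slide 3, by log2 differences of -2.02 to -0.58, and 7 of them passed with the block. Of the 20 that rose at least 2-fold, 11 were higher within slide 3 and 2 passed with the block. Among all tested probes called at least 2-fold, 82.6% of the 1268 falls and 84.1% of the 1074 rises had the same sign within slide 3. Both comparisons share arrays and most members were lower within slide 3, so nothing is read from these counts about the falls.

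**Figure D2:**
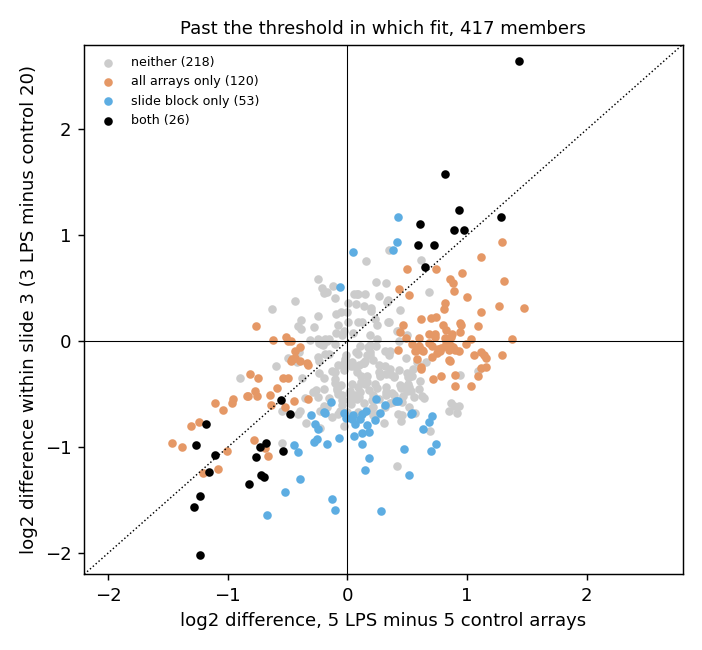
Each point is 1 of the 417 tested members, with its log2 difference over 5 LPS and 5 control arrays on the horizontal axis and its log2 difference within slide 3, where control replicate 20 is the only control, on the vertical axis. The dotted line marks equal differences. Orange points (120) passed over all arrays alone and many sit near 0 on the vertical axis, blue points (53) passed with the slide block alone and are mostly below 0, and black points (26) passed in both fits.

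The named rises are those with the largest difference among members that passed in both fits with no overlap, so the separation of their groups comes from the choice and adds no support. On ASRN6LNC1A100068008V3 the LPS arrays 1, 3, 5, 6 and 7 had levels of 1.92, 2.05, 1.69, 1.97 and 1.92. The controls 15, 16, 17, 18 and 20 had levels of -0.17, 1.57, 1.06, 0.68 and -0.76. The LPS values were tightly grouped while the controls spanned more than the distance between the group means. Control replicate 20 was the lowest control, whereas it exceeded the slide 2 mean on 308 of the 417 members. The rise was 1.43 ± 0.36 (SE) on the log2 scale, 2.70-fold (limma adjusted p = 0.0115). Within slide 3 it was 2.65 (limma adjusted p = 0.0134 with the block), and without control replicate 20 it was 1.12.

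On ASRN6LNC1A100004438V3 the 5 LPS levels, in the same order of arrays, were 1.48, 1.27, 1.02, 0.90 and 0.94. The 5 controls were at -0.29, -0.17, -0.47, 0.037 and 0.082. All controls were close together and control replicate 20, though the highest of them, lay with the slide 2 controls. The rise was 1.28 ± 0.15 (SE), 2.43-fold, with a limma adjusted p of 0.000205. It was 1.17 within slide 3 (limma adjusted p = 0.0142 with the block) and 1.34 without control replicate 20. Before scaling, its signal was 924 to 1060 on the LPS arrays and 225 to 477 on the controls.

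The named falls were chosen in the same way. ASRN6LNC1A100396365V3 had LPS levels of -0.34, 0.13, -0.32, -0.35 and 0.028 and control levels of 0.96, 0.45, 0.97, 1.80 and 1.39. Controls 18 and 20 were the high ones and control 16 came nearest to the LPS arrays. The log2 difference was -1.28 ± 0.22 (SE; limma adjusted p = 0.00194). Within slide 3 it was -1.57 (limma adjusted p = 0.0424 with the block). Before scaling its signal was 302 to 497 on the LPS arrays and 380 to 1180 on the controls, so the unscaled groups overlapped.

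ASRN6LNC1A100158962V3 was the member with the smallest adjusted p. Its LPS levels were 0.32, 0.63, 0.66, 0.29 and 0.35, and its control levels were 1.58, 1.85, 1.68, 1.97 and 1.52. Both groups were narrow, with SDs of 0.18 and 0.19, and control replicate 20 was the lowest control but well above every LPS array. The log2 difference was -1.27 ± 0.13 (SE; limma adjusted p = 8.84e-05), and within slide 3 it was -0.98 (limma adjusted p = 0.0168 with the block). Its unscaled signal was 475 to 786 on the LPS arrays and 1000 to 1294 on the controls, so the groups did not overlap before scaling either. In slide 3 alone, with no other array to estimate the spread, this call and that of ASRN6LNC1A100004438V3 were lost.

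**Figure D3:**
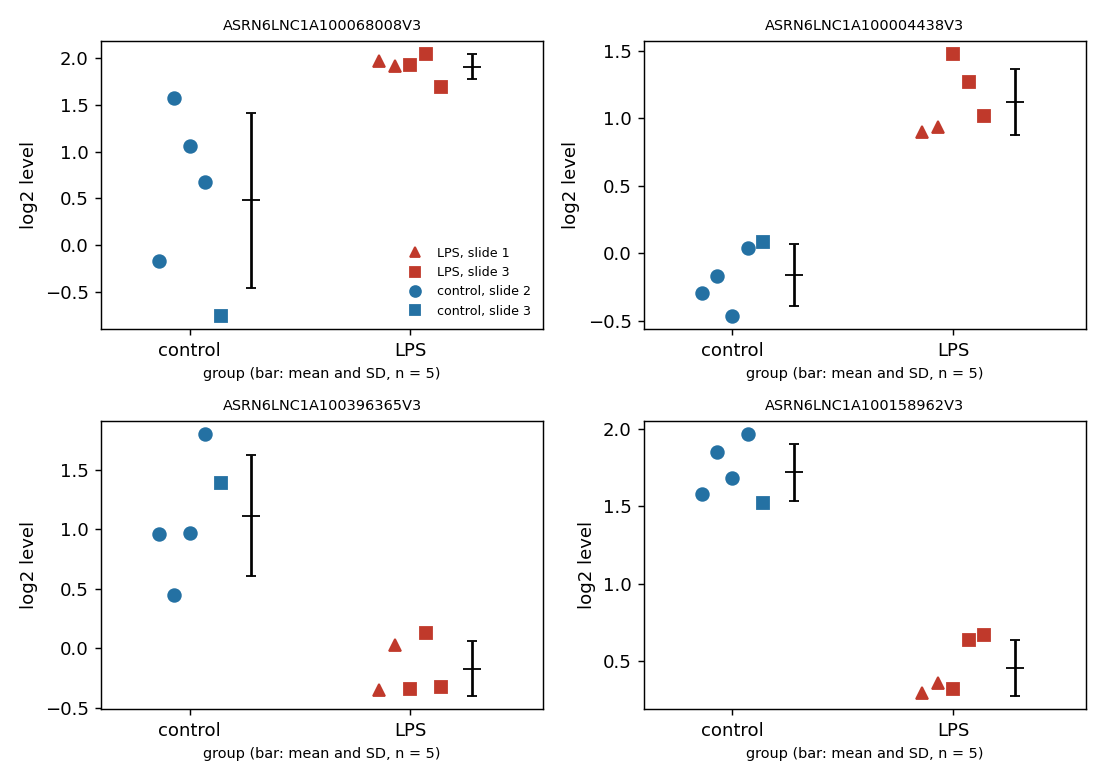
Levels of the 4 named members on each array, as log2 signal relative to the 75th percentile of the array, for controls (blue) and LPS (red), with symbols for slides and bars for the mean and SD of 5 arrays. In each panel the groups do not overlap, and the slide 3 control lies on the same side as the slide 2 controls.

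Most of the brightest members rose together over all arrays. Brightness of different probes also depends on how well each probe binds, so it does not rank the transcripts by amount. The class above a level of 7, a limit set after the values were seen, held 18 members. Of these 15 were called higher over all arrays, 1 lower and 2 neither way. In the 15, the rise ran from 0.54 to 0.99 on the log2 scale, 1.45-fold to 1.99-fold, with limma adjusted p values from 0.0118 to 0.0282. The brightest member had LPS levels of 9.35, 9.07, 8.97, 9.06 and 9.11, slide 2 control levels of 7.66, 8.27, 7.90 and 7.61, and a level of 9.16 on control replicate 20. The third brightest had LPS levels of 8.94, 8.75, 8.59, 8.71 and 8.66, slide 2 levels of 7.72, 7.92, 7.58 and 7.54, and 8.76 on control replicate 20. In both, the 5 LPS arrays and the slide 3 control were high, and the 4 slide 2 controls were low.

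The same held across the class. The slide 2 controls lay below all 6 other arrays on 15 of the 18 members. For the 15 called members the slide 2 control means were 6.85 to 7.86, the LPS means 7.73 to 9.11, and the levels of control replicate 20 were 7.84 to 9.16. Control replicate 20 exceeded the slide 2 controls by 0.76 to 1.30 on them. Within slide 3 their differences were -0.09 to 0.22, with limma adjusted p values from 0.63 to 0.993 when slide was a block. With the block 0 of the 18 passed in limma, and 0 had an unadjusted p under 0.05. Without control replicate 20 the 15 rose by 0.69 to 1.25. Leaving out control replicate 15, 17 or 18 left 9 of the 18 called higher in each case. Slide and group cannot be told apart for these rises, since their 4 low arrays are the slide 2 controls.

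**Figure D4:**
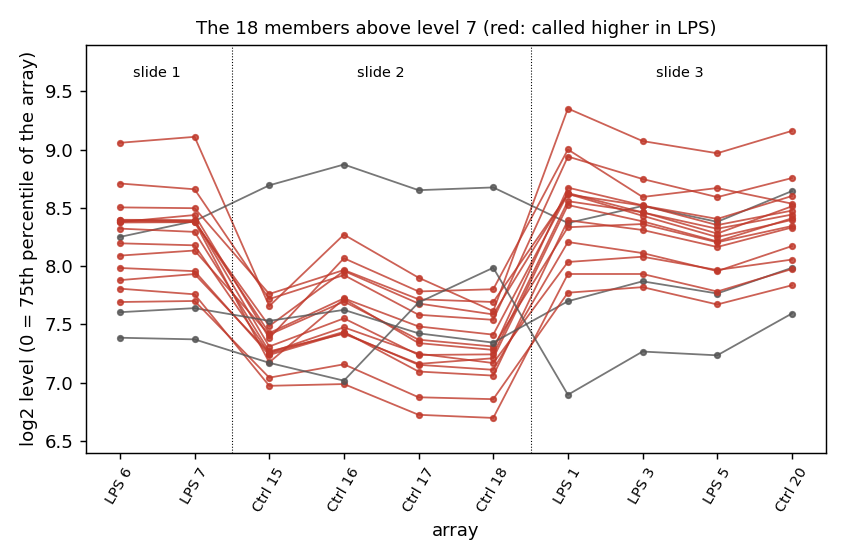
Log2 level of the 18 members above a mean level of 7 on each array, ordered by slide, 1 line per member. The 15 members called higher in LPS (red) were low on the 4 slide 2 controls, at 6.70 to 8.27, and high on the LPS arrays of slides 1 and 3 and on control replicate 20, while the second brightest member was highest on slide 2.

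Most of these members moved together across the arrays. Over the 10 arrays the median Pearson's r among the 153 pairs of the 18 was 0.977, with a lowest value of -0.73. It describes values that share arrays and scaling. On 15 of the 18 the slide 2 controls lay below all other arrays, a gap that enters r, and no r within a slide is given. Members that departed from this pattern were few. The second brightest member had LPS levels of 8.37, 8.52, 8.38, 8.25 and 8.39, and control levels of 8.69, 8.87, 8.65, 8.67 and 8.64. All 5 controls, that of slide 3 included, lay above all 5 LPS arrays, and it fell by 0.33 on the log2 scale (limma adjusted p = 0.0302). Within slide 3 its difference was -0.22 (limma adjusted p = 0.393 with the block). The 2 members not called had log2 differences of 0.13 and -0.26, with limma adjusted p values of 0.451 and 0.286.

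Other custom probes of the same brightness were called in both directions. Custom probes without LNC in their identifier, of a class that the files do not state, included 231 above a level of 7, and 80 of these were called higher and 69 lower. Their median log2 difference was 0.016, against 0.66 in the 18 members. Control replicate 20 was closer to the LPS mean on 32.9% of the 231 and on 88.9% of the 18 members. The 18 members are few and were singled out after their values were seen, so no test was made of this contrast.

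**Figure D5:**
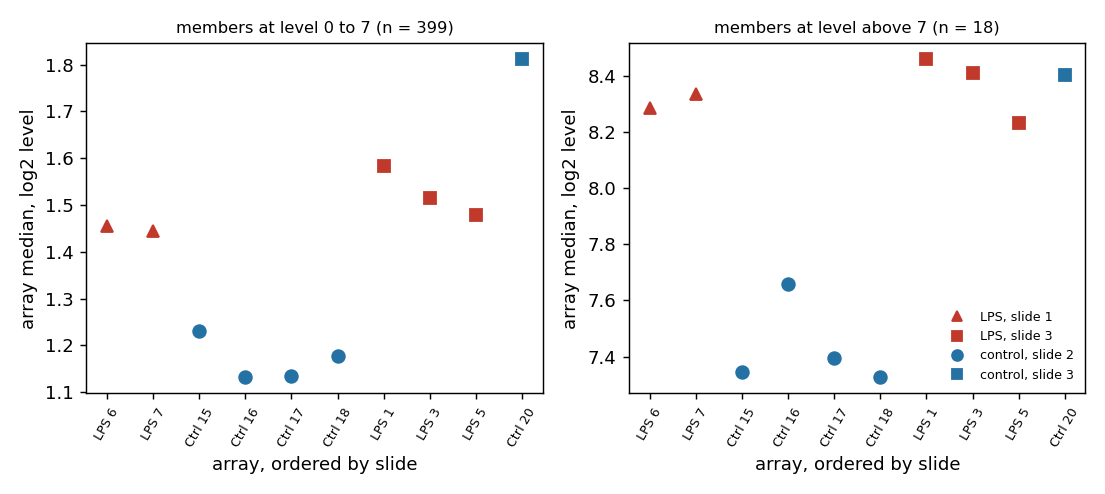
Median log2 level on each array over the 399 tested members at levels 0 to 7 (left) and over the 18 above 7 (right), coloured by group and with symbols for slides. On the left, control replicate 20 is the highest array and the slide 2 controls the lowest; on the right it lies among the LPS arrays, at 8.40 against 8.23 to 8.46.

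Below a level of 7 the members were mixed in direction. Between levels 0 and 1, 29 of 158 members rose and 23 fell. Between 1 and 2, 23 of 100 rose and 15 fell. Between 2 and 4, 14 of 97 rose and 10 fell, and between 4 and 7, 8 of 44 rose and 8 fell. The members called were 32.9%, 38%, 24.7% and 36.4% of these classes, and the other custom probes called were 32.6%, 30.8%, 29.1% and 41.6%. Of the latter, 363, 284, 419 and 304 rose and 369, 303, 462 and 389 fell. The median log2 differences of the members over all arrays were 0.13, 0.24, 0.13 and 0.091 in the order of the classes. Within slide 3 the medians of the members were -0.29, -0.30, -0.31 and -0.43. Members below 7 were thus lower in LPS than in control replicate 20 on median, and those above 7 were level with it at -0.04. Of the 26 members called in both fits, 11 lay between 0 and 1, 8 between 1 and 2, 6 between 2 and 4 and 1 between 4 and 7.

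The position of control replicate 20 was not the same in other probes. Over the members it exceeded the slide 2 controls by a median of 0.62 on the log2 scale. The median was 0.15 over the 2907 dimmer LNC probes tested, and -0.20 over the 9075 other custom probes tested that met the same level rule. With slide as a block 18.1% of the latter passed, of which 55.8% were higher in LPS, against 18.9% and 19% for the members. The dimmer LNC probes passed in 6.5%, and 27% of these were higher. On 200 of the members (48%) the 4 slide 2 controls lay outside the range of all 6 other arrays, below it on 170 and above it on 30. Over all 36025 tested probes the share was 35.3%, with slide 2 below on 6483 and above on 6248.

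The LPS arrays lay on slides 1 and 3, which gives a comparison of slides within 1 group, chosen after the values were seen. In limma 0 of the 417 members differed between the 3 LPS arrays of slide 3 and the 2 of slide 1, against 0.0194% of all tested probes. An unadjusted limma p under 0.05 was found in 71 members. No share over all tested probes is given beside that count, so it is not read as particular to the members. The member differences had a median of 0.081 on the log2 scale and ran from -1.12 to 1.19. This comparison says nothing of slide 2, which held no LPS array.

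The SD between LPS arrays had a median of 0.17 over the members, and that between controls a median of 0.38. Among the slide 2 controls alone it was 0.17. The SD was smaller in LPS than in controls on 334 of the 417 members, and smaller in LPS than among the slide 2 controls on 200. These are 80.1% and 48% of the members, against 69.8% and 43% of all tested probes. Each member has 1 spot per array, so the error between spots of a member could not be measured. The scanner software's own error estimate had a median of 10% of the member signal on each array.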

How the data were processed

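The authors deposited 10 Agilent scanner files, 1 per lung sample, whose intensity values were background-subtracted and detrended by Agilent Feature Extraction 11.0.1.1 and not normalized between arrays, per the file headers. A deposited table of log2 values, with equal column medians of 6.18, served as an alternative, with its tool not given in the sources used here.

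Spots of a probe were averaged as log2 signal, and each array's 75th percentile over all noncontrol probes was subtracted. Outlier spots (126 probes) and 2653 probes well above background on fewer than 5 arrays were left out of the fit. limma 3.58.1 in R 4.3.3 (lmFit, eBayes, 2-sided) was fitted to 36025 probes, with Benjamini-Hochberg adjustment over all of them and a threshold of 0.05. The fit was also tested on simulated data with the spread of the LPS arrays in both groups and no slide effect. That simulation therefore does not bear on slides or on control replicate 20. Slides are inferred from shared scan stamps in the headers. Slide was a fixed block, or a random block with statmod 1.5.0.

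Members and lists were chosen with earlier results of these data known. The naming rule took the 2 largest rises and 2 largest falls past the threshold with no overlap, also past it in the same direction with the slide block. It also took the 3 brightest members and those nearest the limit, here without identifiers, since these cannot be paired with a gene. The number of arrays limits the precision.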

Additional observations from a re-analysis of the deposited data

Results flagged for a closer look

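In 20 sets of 5 arrays (the named members, the 3 brightest and the array medians, in each group), 3 held an array set off from the other 4 by over 0.71 of the whole range, and chance gives about 1 in 20. Control replicate 20 was the highest control for the median over all tested members, with a gap of 0.857 of the range, and for the median over the members at levels 0 to 7, with 0.854. The medians share most of their members and are not separate events. Control replicate 16 was the highest control on the second brightest member, with a gap of 0.783 of the range.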

How the results depend on the processing

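The 146 members past the threshold became 79 with slide as a fixed block, 50 with slide as a random block, 17 in slide 3 alone and 280 with array weights. Calls over all tested probes also changed, from 11885 to 3615 with the fixed block, 3173 with the random block and 21922 with array weights. With the member limit at a level of 1 there were 94 members past the threshold, and at -1 there were 236. Leaving out 1 array at a time gave 100 to 265 members, and 7895 to 19581 of all tested probes. The 89 higher members became 15, 18, 2 and 201 in the first 4 settings and 143 at the limit of -1, with 60 to 192 when 1 array was left out. The 57 lower members became 32 with the random block, 15 in slide 3 alone, 34 at the limit of 1 and 93 at -1, with a range of 40 to 73. The 36 members that changed at least 2-fold became 17 in slide 3 alone, 66 with array weights, 20 at the limit of 1 and 19 when a level above 0 was asked on each array, with a range of 26 to 76. The highest value of each of these 4 ranges of members came from leaving out control replicate 20. Of the calls over all tested probes, 45% were higher in the main fit. That share was 49.2% with the fixed block, 48.3% with the random block and 43.1% with array weights. The causes of these changes were not tested, except that a moved limit changes how many members there are.

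The counts stayed within 1.5 times of the main one under quantile normalization, median centring, normexp background correction, the authors' deposited table, other filters on dim probes, kept outlier spots and trend with robust eBayes. The median log2 difference of the members, 0.16, was -0.29 with the fixed block and -0.10 with the random block. With normexp the median over all probes went from -0.05 to -0.22, the calls over all probes from 11885 to 18613, and the share of them that were higher from 45% to 19%, while 63.2% of the called members stayed higher, against 61%. The 4 named members were chosen for passing in the same direction over all arrays and with the fixed block. Slide 3 alone gives the same differences as that block. Moved member limits, other filters on dim probes, kept outlier spots and trend with robust eBayes leave their differences unchanged. They were also chosen for groups that did not overlap, so leaving out 1 array or weighting the arrays cannot turn their sign. In those settings, most of the 25, their direction was thus fixed in advance. The 4 named members kept their direction in all 25 settings, which therefore adds little support. Of these calls, 2 were lost in slide 3 alone, ASRN6LNC1A100004438V3 at a limma adjusted p of 0.0594 (from 4.583e-06 over the settings) and ASRN6LNC1A100158962V3 at 0.0693 (from 3.945e-06). Of the 18 members above a level of 7, 15 were called higher. At limits of 6 and 8, chosen after the values were seen, 19 of 29 and 7 of 8 were. No paired analysis was possible because no replicate number occurs in both groups.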
